A study of Mus with 5 samples.

Results

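Binding of the transcription factor BATF to chromatin was mapped in mouse CD8 T cells by ChIP-seq, with cells cultured without or with retinoic acid (RA), and the list of BATF peaks from control cells was compared with the list from RA-treated cells. All peaks that carry the anti-BATF label and lie on chromosomes 1 to 19, X and Y were taken, which gave 15810 control peaks and 9894 RA peaks, or 25704 of the 27429 peaks in the 4 BATF and RARα lists together. Peaks were then read gene by gene through the gene names that the authors attached to each peak, and 12188 genes had a peak in at least 1 of the BATF lists.

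BATF is a small basic leucine zipper protein of the AP-1 family. It has no transactivation domain of its own, binds DNA as a dimer with a JUN protein, and in activated T cells binds many composite sites together with IRF4. It is needed for the differentiation of effector CD8 T cells. RA, a metabolite of vitamin A, is the ligand of the nuclear receptor RARα, which pairs with an RXR partner on DNA, and nuclear receptors are known to interfere with AP-1 activity in several cell types.

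The cells were splenic CD8 T cells of wild-type mice, labelled as naive primary cells. Per the protocol, antibodies to CD3 and CD28 together with IL-2 activated them over 24 h, a rest of 24 h followed, with IL-2 kept at 100 U/ml, and the final culture of 1 h held either no RA (control) or 50 nM RA. Each condition was a single list, called on 2 pooled alignment files against the same normal rabbit IgG library of 11410673 fragments, so there was no spread between replicates, and no test between the conditions was possible. The control pool held 23110180 fragments and the RA pool 16424269, or 71.1% as many. Pileup, the number of fragments over a peak's summit, was therefore multiplied by 0.72 to bring control values to the RA depth, and pileup was also divided by the local IgG level, which carries the same depth. All intervals below cover counting error only. A difference between the lists that followed from a less efficient precipitation in the RA pool cannot be told apart from a response to RA.

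Marker genes were examined next. Of 13 genes that mark CD8 T cells, 10 had a control peak and all 10 had an RA peak, among them Cd8b1, which encodes the beta chain of the CD8 coreceptor, with 20 control and 7 RA peaks. The 10 genes had 66 control peaks in all. Of 6 B cell markers 5 had a control peak, with 7 peaks in all, while the 6 myeloid markers had 2 peaks and the 5 erythroid markers 3, and BATF binding near a gene does not show its expression.

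The stronger a BATF site was in control cells, the more often a peak was present there with RA. Of the control peaks 69.9% (95% Wilson interval 69.1 to 70.6) were matched, that is, an RA peak was found no more than 5 kb away, and 30.1% (4764 peaks) were unmatched. Peak numbers are skipped in the RA list at 131 of these 4764, and without them 70.5% were matched. The unmatched control peaks had a median pileup of 24.7 and a median length of 427 bp, against 34.6 and 732 bp for the matched peaks. At the RA depth 14798 of the 15810 control peaks would still pass the calling cutoff, and of these 71.6% had an RA peak, against 44.2% of the 1012 peaks that no longer passed. With control peaks grouped by the −log10 p that they would have at the RA depth, the share with an RA peak was 49.0% from 5 to 7, 56.8% from 7 to 10, 72.6% from 10 to 15, 86.5% from 15 to 20, 94.6% from 20 to 30, and 99.0% of 1510 peaks at 30 or above. In the other direction only 368 RA peaks (3.72%) had no control peak within 5 kb. These were short and weak, with a median pileup of 16 and a median length of 288.5 bp, and 55.2% of them were at most 300 bp long.

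**Figure D1:**
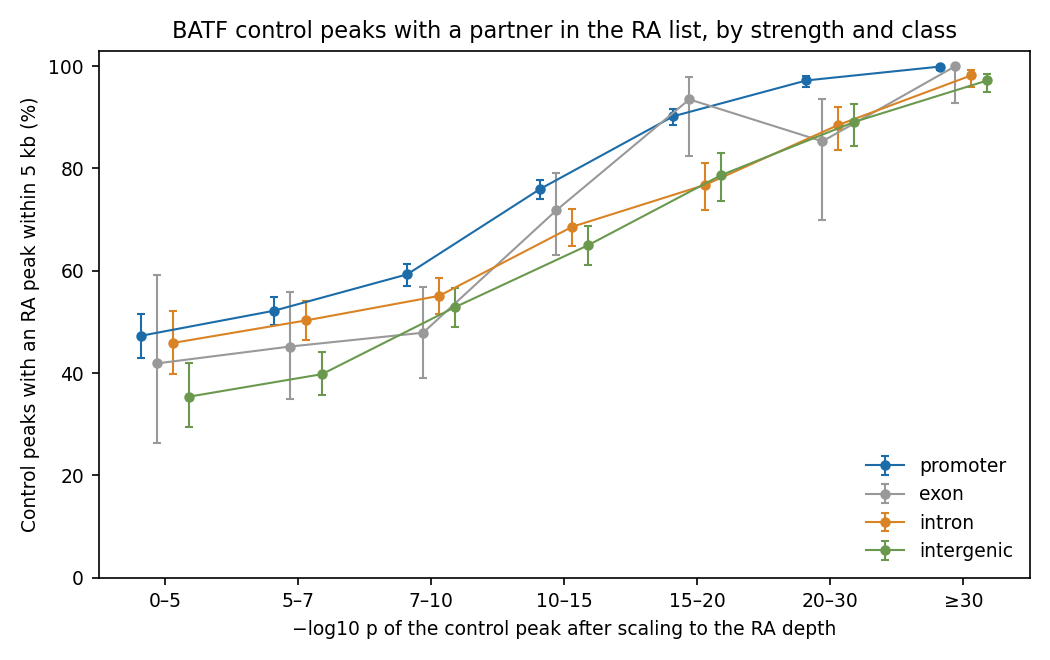
Share of BATF control peaks that were matched by an RA peak (y axis, percent) against the −log10 p the control peak would have at the depth of the RA pool (x axis, bins), with 1 line for each annotation class and Wilson 95% intervals as bars. Promoter peaks go from 47.3% in the lowest bin to 99.9% in the highest, and intergenic peaks from 35.4% to 97.2%.

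Over all strengths, promoter peaks were matched more often than peaks elsewhere. An RA peak was present for 74.3% of 9287 promoter peaks, 65.3% of 481 exon peaks, 64.5% of 3181 intron peaks and 62.3% of 2861 intergenic peaks. Promoter peaks were also stronger (median pileup 32.6, against 26.7 in introns and 28.6 between genes), and within the bin from 15 to 20 the shares were 90.2% at promoters, 76.8% in introns and 78.7% between genes, while exon peaks, of which this bin held 46, had 93.5%. Chromosome X had a lower matched share than the autosomes, and its peaks were also weaker. Among control peaks with a −log10 p of 10 or more at the RA depth, 66% of 100 peaks on X had an RA peak (56.3 to 74.5), against 84.7% of 8564 on the autosomes, at median pileups of 29.6 and 40.5.

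Where a BATF site was present in both lists, its height at equal depth was on average lower with RA, and this was seen mainly at promoters. In 5524 pairs the summits lay within 100 bp of each other and were taken as the same site. The median ratio of depth-adjusted pileup, RA over control, was 0.855 over these sites (quartiles 0.728 and 0.997), and the ratio of pileup over IgG level was 0.883. The latter was 0.838 at 3318 promoter sites, 0.884 at 169 exon sites, 0.952 at 984 intron sites and 0.963 at 1053 intergenic sites. Among sites with a control pileup of at least 40, the medians were 0.788 at promoters, 0.93 in introns and 0.928 between genes.

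The gap between promoters and other sites was present at each level of control pileup. For promoters against introns and intergenic sites combined, the median ratio was 0.995 against 1.04 below a pileup of 30, 0.866 against 0.95 from 30 to 40, 0.799 against 0.91 from 40 to 60, 0.766 against 0.931 from 60 to 100, and 0.806 against 0.968 above 100. Grouping by the mean of both pileups, which favours neither list, gave 0.801 against 0.946 from 30 to 50. Grouping strong sites by their IgG level gave 0.747 against 0.909 at the lowest IgG levels (below 3) and 0.847 against 0.988 at the highest (8 or more). Promoter peaks were longer, with a median of 925 bp against 609 bp among the same-site pairs, and the part of length in the gap was not tested.

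**Figure D2:**
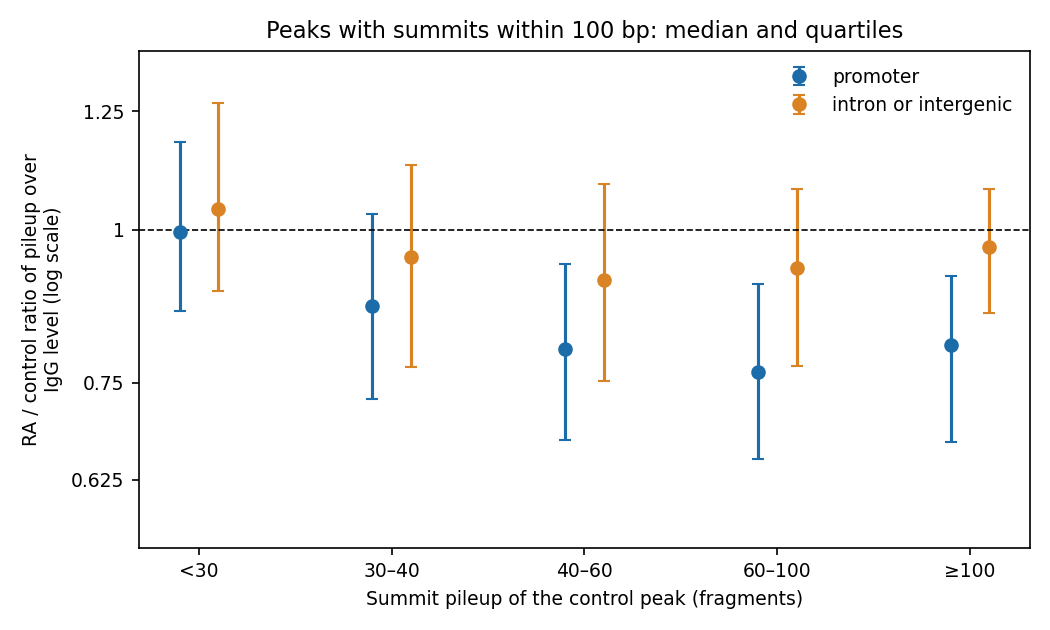
Ratio of pileup over IgG level, RA over control (y axis, log scale), at BATF sites with summits within 100 bp of each other, by the control pileup (x axis, bins in fragments). Points are medians and bars the quartiles, for promoters and for introns and intergenic sites combined. The dashed line marks equal height, and the promoter median is the lower of the pair in every bin, for example 0.766 against 0.931 from 60 to 100.

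Gene by gene, most genes with BATF nearby kept at least 1 peak. Of 11910 genes with a control peak, 9076 also had an RA peak and 2834 had none, which is 23.8% of them. Among the genes that kept a peak, 3787 had fewer peaks, 4738 the same number and 551 more, so that 55.6% of all genes with a control peak had fewer peaks or none. A first peak was gained by 278 genes, or 2.97% of the 9354 genes with an RA peak. Loss depended closely on how many peaks a gene had: 35.7% of 6137 genes with 1 control peak had no RA peak, 17.6% of 2612 genes with 2 peaks, 5.15% of 757 genes with 4 peaks, and 0 of 436 genes with 7 or more, which allows a share of up to 0.873% (Wilson).

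**Figure D3:**
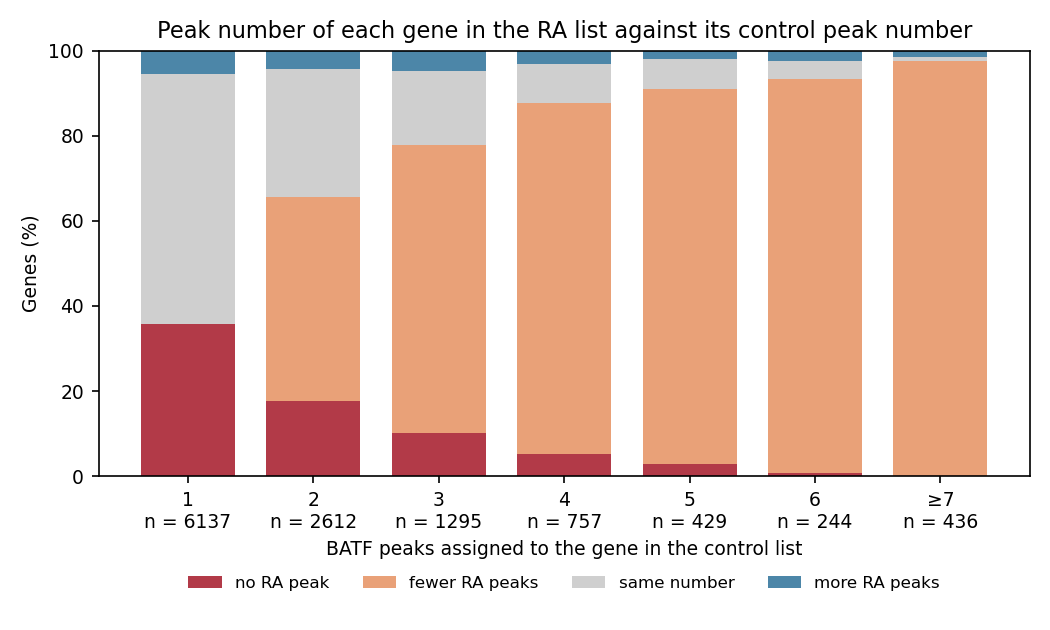
Genes grouped by their number of BATF control peaks (x axis) and the share of each group (y axis, percent) that had no RA peak, fewer, the same number or more. The share without any RA peak goes from 35.7% at 1 control peak to 0% at 7 or more.

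A name in the list is not quite a site, and 3 features of the files bear on these counts. For 230 of the 2834 genes an RA peak lay within 5 kb but carried other gene names, which leaves 2604. The numbers that the peak caller gave to the RA peaks skip where peaks are not analysed here, and 104 of the 2834 genes had a control peak at such a skip, so their loss is uncertain. With both groups and the genes whose control peaks would not pass at the RA depth left out, 2253 genes remained. Among the gaining genes, 37 had a control peak nearby under other names and 14 had a peak at a skipped control number. A further point concerns the 551 genes with more peaks, of which 324 had more only because 1 long control peak overlapped several short RA peaks. Such split peaks numbered 612, with a median length of 2309 bp.

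Complete loss by name was rare among genes with many control peaks. Only 53 genes lost 4 or more peaks and kept none, and 14 lost 5 or more. This last group was chosen after its values were seen. Complete loss was found at 5.15% of 757 genes with 4 control peaks, 2.80% of 429 with 5 and 0.82% of 244 with 6. Over all genes with a control peak it was 23.8%. Map3k1, which encodes the kinase MEKK1 upstream of JNK and so of JUN phosphorylation, had 6 control peaks with pileups from 15.8 to 40.5, a promoter peak of 35.5 (chr13:111806879-111808617, mm10) among them. The nearest RA peak to any of the 6 was 86028 bp away, and no RA number is skipped there. Clcf1, a cytokine of the IL-6 family, had 6 control peaks with pileups from 13.8 to 27.6, of which 1 lay near an RA peak that carried other names. Tgfbr1, a receptor chain for TGF-beta, had 5 control peaks (15.8 to 28.6), and Slamf1, a costimulatory receptor of T cells, had 5 (16.8 to 26.7), none with an RA peak within 5 kb.

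The same held for all 5 control peaks of Gnpda1, Mgst2, Rcbtb2 and Rcn3, for the 5 peaks that Rbbp6 shared with 4930413G21Rik, and for 4 of the 5 of Herc1 and Rps6kb2. Their pileups went from 13.8 to 34.6, so these were genes with many weak peaks. Alkbh4 and Prkrip1 also had 5 control peaks and no RA peak by name, but 5 and 4 of these had an RA peak within 5 kb under other names, so these sites were not lost.

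Ranked by pileup over IgG level, the first BATF site without an RA peak was an intergenic site near Jdp2 that was also named for Batf. This site, which like the other unmatched sites ranked here was chosen after the values were seen, lies at chr12:85593079-85593552 (mm10, 474 bp), 5104 bp from Jdp2, which encodes an AP-1 family repressor, and 93168 bp from Batf. Its control pileup was 69.1 over an IgG level of 2.86, a ratio of 24.2. At the RA depth that pileup would be 49.8, against 11 fragments needed for a call, and the nearest RA peak was 31083 bp away. The other Batf peaks were kept: control pileups of 56.3, 29.6 and 16.8 stood against RA pileups of 43, 16 and 13.

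An intron of Acaca, which encodes acetyl-CoA carboxylase, the first step of fatty acid synthesis, held the next site in this ranking (pileup 62.2 over an IgG level of 3.12). At the RA depth its pileup would be 44.8, and the nearest RA peak was 71838 bp away. Further sites of the ranking were an intron of Cfdp1 (pileup 72.1), an intergenic site near Abracl, Reps1 and Heca (55.3), a site near Phf3 (51.4) and the promoter of Sf3b5, a subunit of the splicing complex (60.2). All of them would stand at 37.0 fragments or more at the RA depth, and the nearest RA peak was at least 13459 bp away. By pileup alone, unmatched promoter sites of Tomm40 (76.0 over an IgG level of 20.9), Mtmr4 and Lrrc48 (73.1) also stood above the Jdp2 site, on higher IgG levels.

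Among RA peaks without a control peak, the first by pileup over IgG level lay at the locus of Ccr9, the gut-homing chemokine receptor and a classic RA-induced gene. It is intergenic at chr9:123740851-123741167 (mm10, 317 bp), 26044 bp from Ccr9, and the authors' names for it also include Cxcr6, Fyco1, Lztfl1 and Slc6a20a. Its RA pileup was 48 over an IgG level of 2.03, a ratio of 23.7. The nearest control peak was 6483 bp away, although at the control depth the site would hold 66.7 fragments, against 12 needed. That neighbouring control peak, also named for Ccr9, had a pileup of 51.4 without RA and 48 with RA, which is a depth-adjusted ratio of 1.30 (exact counting interval 0.859 to 1.96).

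Other RA-only sites lay in introns of Pard3, which encodes a polarity protein (pileup 43, 21.2 times the IgG level), and of Il12rb2, the signalling chain of the IL-12 receptor (27, 12.5 times), and between genes near Btg1, an antiproliferative gene (45, 12.5 times), and Rhoh (38, 13.2 times). Il12rb2 had 3 control and 2 RA peaks, and its strongest control peak went from 63.2 to 42, a depth-adjusted ratio of 0.923 (0.61 to 1.38). The Il12rb2 site was 283 bp long and 8412 bp from a control peak.

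Genes whose losses ranked highest by the ratio of pileup to IgG level were mostly genes with 1 isolated site. Pilra, an inhibitory receptor of myeloid cells, had an intron site of 49.4 over an IgG level of 2.88. Nhsl2 on chromosome X had an intron site of 48.4, Pard3b an intron site of 50.4, and Tufm, a mitochondrial translation factor, a promoter site of 46.4. Lamb1, Slc26a3 and Dld shared 1 intergenic site with a pileup of 48.4. Sf3b5, given above, also belongs here. For none of these did an RA peak lie within 5 kb, and, Sf3b5 aside, at the RA depth each would have stood at 33.4 to 36.2 fragments. The remaining 4 genes of this ranking were not clear losses. The sites of Hist1h4h and LOC102308570 had RA pileups of 29 and 38 under other names, and Pwp1 and Elof1 lie where RA peak numbers are skipped.

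The genes that gained a first peak were few in sites. The peak with the highest pileup, 91, carried 14 gene names, among them S100a3, S100a6, S100a8, S100a14, S100a16 and S100a7a, and overlapped a control peak that carried other names. Pard3 is the intron site above. Aoc1, Tmem176a and Tmem176b shared 1 intergenic peak with an RA pileup of 24, 30525 bp from a control peak. Pbx3, a homeodomain partner protein, gained 2 peaks, the stronger with a pileup of 32, 231243 bp from a control peak. Tvp23b gained 2 peaks at a skipped control number and is uncertain.

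Genes that lost the most peaks while keeping at least 1 had large clusters of sites, several of them at genes of T cell identity and signalling. Ikzf1, which encodes the lymphoid transcription factor Ikaros, had 16 control and 3 RA peaks. Ifnar1 and Il10rb, neighbouring receptor genes for type I interferon and for the IL-10 family, each had 16 and 3, with many sites in common. Fyn, a kinase of T cell receptor signalling, had 16 and 4. Ets1 went from 25 to 12 peaks, Cd8b1 from 20 to 7, Thada from 19 to 7 and Bcl11b, which maintains T cell identity, from 18 to 7.

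At 3 of these genes the strongest site stood at about equal height and the unmatched sites were weak. In an intron of Fyn the strongest site had a pileup of 175.8 in control and 121 with RA, a depth-adjusted ratio of 0.956 (0.753 to 1.21), while the 12 Fyn sites without an RA peak had pileups of 14.8 to 35.5. The strongest Thada site went from 170.8 to 125 (ratio 1.02, 0.801 to 1.29) and its 5 unmatched sites had pileups of 17.8 to 29.6. The strongest Il10rb site, also named for Ifnar2, went from 201.4 to 159 (ratio 1.10, 0.886 to 1.36), against 17.8 to 34.6 for the 5 unmatched sites. At Ikzf1 no site stood out: its 10 matched control peaks had a median pileup of 26.2, and the 6 unmatched a median of 23.2.

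Read by distance, most of these clusters lost fewer sites than the counts by name show, since several control peaks of a cluster can lie within 5 kb of 1 RA peak. Matched by distance were 21 of the 25 Ets1 control peaks, 16 of the 18 of Bcl11b, 16 of the 20 of Cd8b1, 14 of the 19 of Thada, and 10 of the 16 of Ifnar1 and of Ikzf1. At Fyn the loss was the same in both readings, with 4 of 16 matched.

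At the strongest site of a gene, the control peak with the highest −log10 p, lower values with RA were more common than higher ones. For 5849 genes the strongest control peak had an RA summit within 100 bp, and the median depth-adjusted pileup ratio was 0.839. It was at least 1.5-fold lower at 15.9% of these genes (929) and at least 1.5-fold higher at 0.462% (27). Each site was picked by its control value, a choice that favours lower ratios, and the part of that choice was not tested. Over all 5524 same-site pairs, which were not picked by gene, the median was 0.855. With the RA peak of nearest midpoint as partner and pileup over IgG level as the measure, 8783 genes had a pair, and 21.0% were at least 1.5-fold lower and 4.12% at least 1.5-fold higher.

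The lowest same-site ratios among genes with a control pileup of at least 40 were mostly at promoters, a ranking added after the values were seen. Lekr1 had 54.0 fragments at the RA depth in control and 22 with RA (ratio 0.407, 0.241 to 0.662). Rttn went from 58.3 to 16 (0.382, 0.205 to 0.672), Slc38a2, which encodes an amino acid transporter, from 46.4 to 13 (0.389, 0.193 to 0.731) and the shared promoter site of Rpa1, a subunit of the single-strand DNA binding complex, and Smyd4 from 63.2 to 19 (0.418, 0.236 to 0.706). At Plcg1, the phospholipase of T cell receptor signalling, the promoter site went from 41.5 to 12 (0.402, 0.193 to 0.778). The promoter site of Ppp1ca (41.5 to 12), the shared site of Mms19 and Ubtd1 (61.2 to 18) and an intergenic site near Serp1, Eif2a and Tsc22d2 (43.5 to 13) complete the group.

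The highest same-site ratios lay in introns and between genes. An intron site of Cblb, a ubiquitin ligase that restrains T cell activation, went from 72.1 to 85 although the RA pool was smaller, a depth-adjusted ratio of 1.64 (1.18 to 2.27), at chr16:52095306-52096159 (mm10). Around it Cblb had 9 control peaks and 4 RA peaks. An intron site of Dtwd2 went from 49.4 to 64 (1.80, 1.22 to 2.66) and an intron site of March10 from 67.2 to 77 (1.59, 1.13 to 2.24). The shared intergenic site of the Ly6 cluster (Ly6a, Ly6e, Ly6i, Gml and Hemt1), where Ly6a encodes the T cell antigen Sca-1, went from 46.4 to 53 (1.59, 1.05 to 2.40). These intervals were not adjusted for the choice of extreme sites, so that they are too narrow for members picked in this way.

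Among genes whose strongest control peak had a pileup of at least 40, the extreme ratios by nearest midpoint depended on which RA peak was paired. Ptger4, a receptor for prostaglandin E2, had the lowest ratio, 0.0925, and its control peak of 7962 bp with a pileup of 168.9 overlapped 5 RA peaks with pileups of 24, 113, 19, 25 and 25. The RA peak at the same summit was the one of 113, a depth-adjusted pileup ratio of 0.93 (0.727 to 1.19). Likewise Dusp2 and Astl (0.231) shared a site of 131.3 whose RA summit peak was 102, and Atp6v1g2 and Nfkbil1 (0.208) a site of 152.1 whose RA summit peak was 90. Dleu2 (0.191) and Laptm5 (0.243) had RA summits 239 bp and 149 bp away, with pileups of 52.3 to 23 and 58.3 to 25, and Kcnk5 (0.241) had a site of 70.1 whose nearest RA summit was 42. At the other end, again among genes with a control pileup of at least 40, the ratios of Pan3 and Zcchc14 (2.69), Pik3r5 (2.40), Zc3hav1 (2.26), Txndc17 (2.16), Arhgap10 (2.08), and Acap3 and Pusl1 (2.07) rested on pairs whose RA summit had a low IgG level, as at Pan3 (11.0 in control and 2.23 with RA). Where the RA peak of nearest summit could be paired, their depth-adjusted pileup ratios were 0.795 to 1.36.

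By function, 5 lists of T cell and cell cycle genes kept a BATF peak at every member that had one. Of the 12 effector transcription factors all had a control peak and none lost every peak, against 23.8% over all genes. The same was true of the 10 exhaustion factors, 22 trafficking receptors with a control peak, 22 T cell receptor signalling genes and 24 cell cycle genes. Fewer peaks or none were found at 83.3% of the effector factors, 70% of the exhaustion factors and 77.3% of the trafficking and of the signalling genes, but at 45.8% of the cell cycle genes, against 55.6% over all genes. All 5 lists had a higher median number of control peaks than the 1 over all genes. The medians were 6.50 for signalling genes, 4.50 for effector factors, 4 for trafficking receptors, 2.50 for exhaustion factors and 2 for cell cycle genes. Genes with many peaks seldom lost all of them, but 17.6% of genes with 2 control peaks did. Cell cycle peaks had a median pileup of 42.0, against 30.6 over all control peaks and 27.6 to 30.1 in the other lists named here. The part of peak number and of peak height in the absence of complete losses was not tested.

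**Figure D4:**
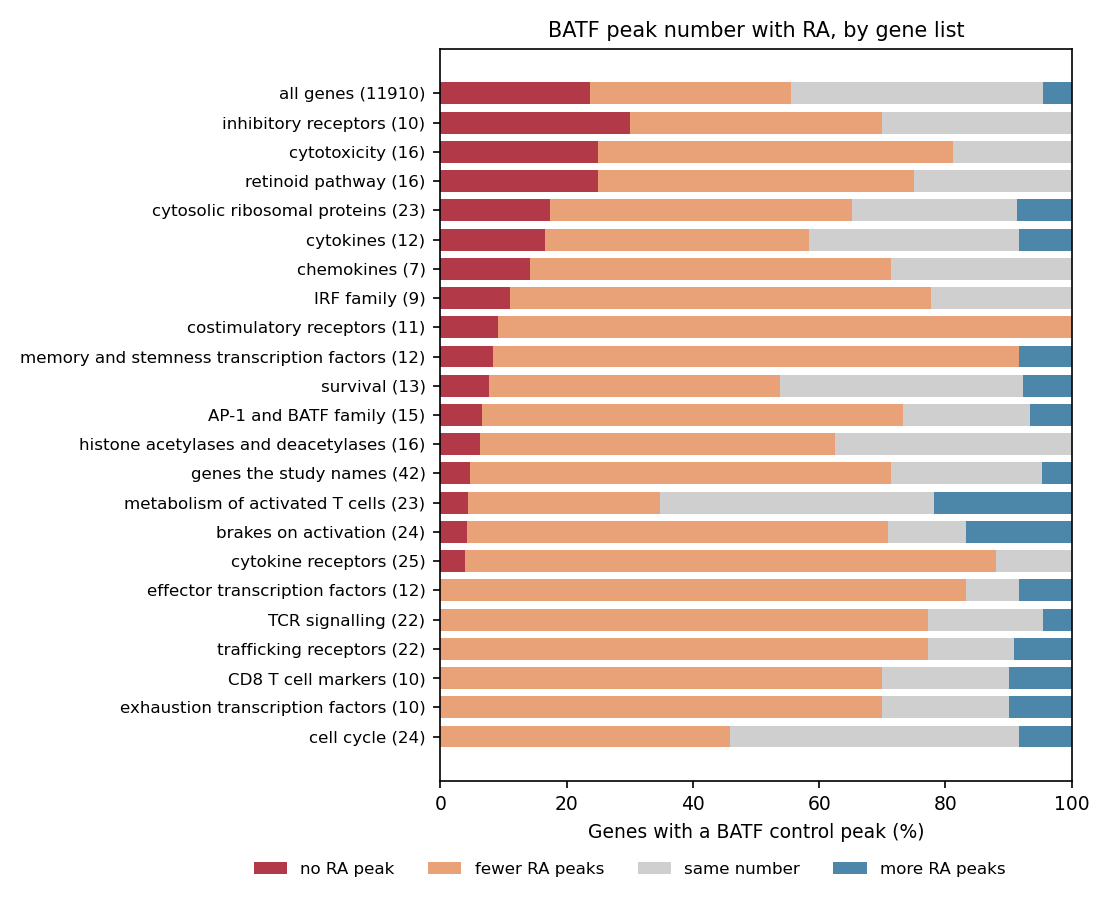
Share of each gene list's members with a BATF control peak (y axis, lists) that had no RA peak, fewer, the same number or more (x axis, percent), beside all genes, with the number of such members in brackets. Over all genes 23.8% had no RA peak, and in the effector factor, exhaustion factor, trafficking, signalling and cell cycle lists 0%.

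Among the AP-1 family, 15 of 16 genes had a control peak, 1 lost all, 10 had fewer, 3 the same number and 1 more (73.3% fewer or none). The list's median was 3 control peaks, and of 1295 genes with 3 peaks 879 had fewer and 130 none. The AP-1 gene that lost its peaks was Batf3, the closest relative of Batf, with 2 control peaks. The stronger was an intron site of 29.6, which would be 21.3 at the RA depth against 11 fragments needed. Bach2, a repressor that competes with AP-1 and restrains effector differentiation, went from 9 peaks to 3 while its strongest site went from 192.6 to 115 (depth-adjusted ratio 0.83, 0.653 to 1.05). Jund went from 8 to 4 peaks, with its strongest site at 66.2 and 48 (ratio 1.01).

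In the IRF family list 9 genes had a control peak, 6 had fewer and 1, Irf1, had none with RA. That is 77.8% with fewer or none, against 55.6% over all genes. Among the 6 were Irf2bp2 (8 control and 6 RA peaks) and Irf2bpl (15 and 8), which encode IRF2-binding proteins rather than IRFs. Fewer peaks or none were common at the list's median of 4 control peaks. Of 757 genes with 4, only 70 had the same number and 23 more. The Irf1 promoter site (40.5, or 29.1 at the RA depth) lay 5439 bp from the nearest RA peak, just outside the 5 kb limit. Irf2 held a very strong site, 364.4 in control and 243 with RA (0.927, 0.785 to 1.09), although its peak number went from 9 to 3.

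Among 12 memory and stemness factors 10 had fewer peaks, 1 more and 1, Bcl6, none, so that 91.7% had fewer or none. The share over all genes was 55.6%, but the list's median number of control peaks was 8.50 against 1. Of 436 genes with 7 or more control peaks, 426 had fewer, so the list's share was no higher than that of genes with similar peak numbers. Bcl6, a repressor that supports memory cells and follicular helper T cells, had a single promoter peak of 51.4 over a high IgG level of 9.83, which would be 37.0 at the RA depth against 21 fragments needed, and the nearest RA peak was 162138 bp away. Foxp1, which maintains quiescence, went from 26 to 16 peaks with its strongest site at 125.4 and 90 (ratio 0.997), and Tcf7, the gene of TCF1, from 15 to 5 with its strongest site at 76.0 and 55 (1.01, 0.698 to 1.44). The median ratio over the 11 genes of the list with the same strongest site in both was 0.991.

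Receptors that give or withhold costimulation had the lowest matched shares of all the lists. Of 60 control peaks of the costimulatory receptors, 33 (55%, 42.5 to 66.9) were matched, against 69.9% of all control peaks. Every one of the 11 genes with a control peak had fewer or none. This was common at the list's median of 5 control peaks, where 378 of 429 genes had fewer and 12 none. Cd2 went from 10 peaks to 4, Cd28 from 8 to 3 and Icos from 8 to 2, and Slamf1 lost all 5. The strongest Cd2 site was 68.1 and 48 (ratio 0.979) and the strongest Icos site 56.3 and 26 (0.642, 0.387 to 1.04).

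Of the 30 control peaks of the inhibitory receptors, 17 (56.7%, 39.2 to 72.6) were matched. Of 10 genes with a control peak 3 lost all (30%, against 23.8% over all genes), namely Cd160 (20.7), Entpd1, the gene of CD39 (18.8), and Lair1 (21.7), each with 1 weak peak. Havcr2, the gene of TIM-3, gained an intron peak with an RA pileup of 20. Peaks of both receptor lists were weak, with median pileups of 25.7 and 24.7 against 30.6 over all control peaks.

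Among 16 cytotoxicity genes with a control peak, 4 lost all and 9 had fewer. The genes that lost all were Nkg7, a granule protein, with 2 peaks of 17.8 and 24.7, the killer cell receptors Klrd1 and Klrk1, which shared a site of 33.6, and Klrg1, with 2 peaks of at most 18.8. The share of the list's genes that lost all, 25%, was near the 23.8% over all genes. At the granzyme genes, which encode proteases of the killing granules, some strong sites were matched and others were not. The strongest site by −log10 p of Gzmb and Gzmc, which they share, was 46.4 and 35 (ratio 1.05), and that of Gzma 79 and 63 (1.11), while a further shared site of Gzmb and Gzmc (46.4) and a site of Gzma (49.4) had no RA peak within 5 kb. The strongest Fasl site was 68.1 and 63 (1.28, 0.898 to 1.83). The median same-site ratio over 10 genes of the list, some of which share a site, was 1.07, against 0.839 over all genes. Promoter peaks, which had lower ratios, made up 24.3% of the list's control peaks, against 58.7% of all control peaks. The medians of all other lists were lower, among them 0.891 for trafficking receptors, with 24.5% promoter peaks. The part of the promoter share was not tested.

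Of 12 cytokine genes with a control peak, Tnfsf11, the gene of RANKL, lost 2 weak peaks and Tnfsf10, the gene of TRAIL, lost 1 at a skipped RA number, so the latter is uncertain. Il3 gained an intergenic peak of 13 fragments. The chemokine gene Cxcl10 lost a promoter peak of 20.7. Among 25 cytokine receptors 21 had fewer peaks and Tgfbr1 none, at a list median of 6 control peaks. Of 244 genes with 6 control peaks, 226 had fewer and 2 none. The strongest site of Il2rb, a chain of the IL-2 receptor, was 139.2 and 110 (ratio 1.10, 0.848 to 1.42). Trafficking receptors went from 106 to 60 peaks, and 67.0% of the 106 were matched, against 69.9% of all control peaks. Among them S1pr1, the receptor for lymph node egress, had 11 and 3 peaks, but its strongest site was at 130.3 and 115 (1.23, 0.946 to 1.59). Of 24 genes that restrain activation, Spry1 lost both of its peaks. The share that lost all was 4.17% in that list, 16.7% for cytokine genes, 14.3% for chemokine genes and 4% for cytokine receptors. Over all genes it was 23.8%.

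In the retinoid pathway 16 of 28 genes had a control peak, 4 lost all and 8 had fewer. The share that lost all, 25%, was near the 23.8% over all genes. Rxra, the partner receptor of RARα, had 2 control peaks, the stronger an intron site of 42.5 over an IgG level of 9.00, and the nearest RA peak was 212914 bp away. Tgm2, a known RA target, lost an intergenic site of 43.5, Fabp5, which carries RA in the cell, a promoter site of 24.7, and Hic1 a promoter site of 38.5 that had an RA peak 2275 bp away under another name. Rara itself went from 12 peaks to 6, with its strongest promoter site at 82.0 and 45 (0.763, 0.519 to 1.11).

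Of 76 control peaks of cell cycle genes, 84.2% (74.4 to 90.7) were matched, and their median pileup was 42.0. Of 23 ribosomal protein genes Rpl10, Rpl32, Rplp0 and Rps2 had no RA peak by name (17.4%), although RA peaks lay 4906 bp from Rplp0 and 3520 bp from Rps2. Metabolic genes had the lowest list median at the same site, 0.75 over 13 genes, against 0.839 over all genes. By peak number the list was less affected: 34.8% of its 23 genes had fewer peaks or none, against 55.6% over all genes. Of its 54 control peaks 77.8% were matched, against 69.9% of all control peaks. Their median pileup was 36.0, against 30.6 over all control peaks, and 55.6% were promoter peaks, against 58.7%. The part of peak height in the low ratio was not tested. The 1 metabolic gene that lost every peak was Srebf1, the regulator of lipid synthesis, with an intron site of 71.1 over an IgG level of 13.0. Of 16 histone acetylase and deacetylase genes with a control peak only Kat7 lost all (6.25%), a promoter site of 53.3 over 10.3. Of 13 survival genes Bax lost its only peak, of 28.6 (7.69% lost all), while 6 had fewer. Both shares were below the 23.8% over all genes, and 83.3% of the survival list's control peaks were matched, against 69.9% of all.

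A list of 44 genes was drawn up from the study's account of RA, RARα and BATF, and 42 had a control peak. It does not hold every gene named there. Left out were, for example, Junb (3 control and 4 RA peaks) and Nr4a3 (4 and 6). Itga4, with the same number, and Tcf7, Egr1, Egr2 and Il12rb1, with fewer RA peaks, were also left out. Some members, such as Gimap4, Ctla4 and Tnf, are not named in the study's text. The study picked several of the listed genes from these same libraries, so that their values are not independent of that choice. Deptor and P2rx7 had no BATF peak in either list. Dtx4 (22.7) and Ifit1 (29.6) had none with RA, and Ifit1 lies where RA numbers are skipped. Of the rest, 28 had fewer peaks, 10 the same number and 2 more. The list's peaks went from 167 to 110 in all, and those of all genes from 15810 to 9894. Fewer peaks or none were found at 71.4% of the 42 genes, against 55.6% over all genes. The list's median was 3.50 control peaks. Of 1295 genes with 3 control peaks 879 had fewer and 130 none. Of 757 with 4, only 70 had the same number and 23 more. The list's share was thus no higher than that of genes with similar peak numbers.

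At several of these genes the strongest site stood at about equal height in both lists. The exon site of Ctla4, the inhibitory receptor, was 165.9 in control and 114 with RA (0.955, 0.746 to 1.22). The Mki67 promoter was 97.8 and 71 (1.01, 0.733 to 1.38), and the site near Tbx21, the gene of T-bet, 73.1 and 49 (0.932, 0.636 to 1.35). Sites near Ifng (66.2 and 47), Gzma (79 and 63), Asb2 (68.1 and 48) and Lif (51.4 and 42) had ratios of 0.987, 1.11, 0.979 and 1.14, and that of Tigit (68.1 and 60) 1.22, and all of these intervals included 1.

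Sites of Lef1, Gfi1, Tnf and the Gimap genes had depth-adjusted ratios whose intervals lay below 1. They were grouped for this reason, from a list in which 33 genes had the same strongest site in both conditions. The intervals were not adjusted for that choice. The median ratio over all genes, 0.839, lay inside the intervals of Gfi1, Tnf and the Gimap site, but above that of Lef1. The promoter site of Lef1, a transcription factor of naive and memory T cells, went from 103.7 to 38 (0.509, 0.342 to 0.745), and Lef1 had 11 control and 7 RA peaks. Gfi1, a transcriptional repressor, went from 77.0 to 35 (0.631, 0.411 to 0.952) at its promoter, Tnf from 62.2 to 27 (0.603, 0.369 to 0.961), and the site shared by Gimap4 and Gimap7 from 64.2 to 29 (0.628, 0.391 to 0.987). Near Fos (46.4 and 20), Nr4a1 (40.5 and 16) and Irf4 (56.3 and 32) the ratios were 0.599, 0.549 and 0.79, with intervals that reached 1 or above.

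**Figure D5:**
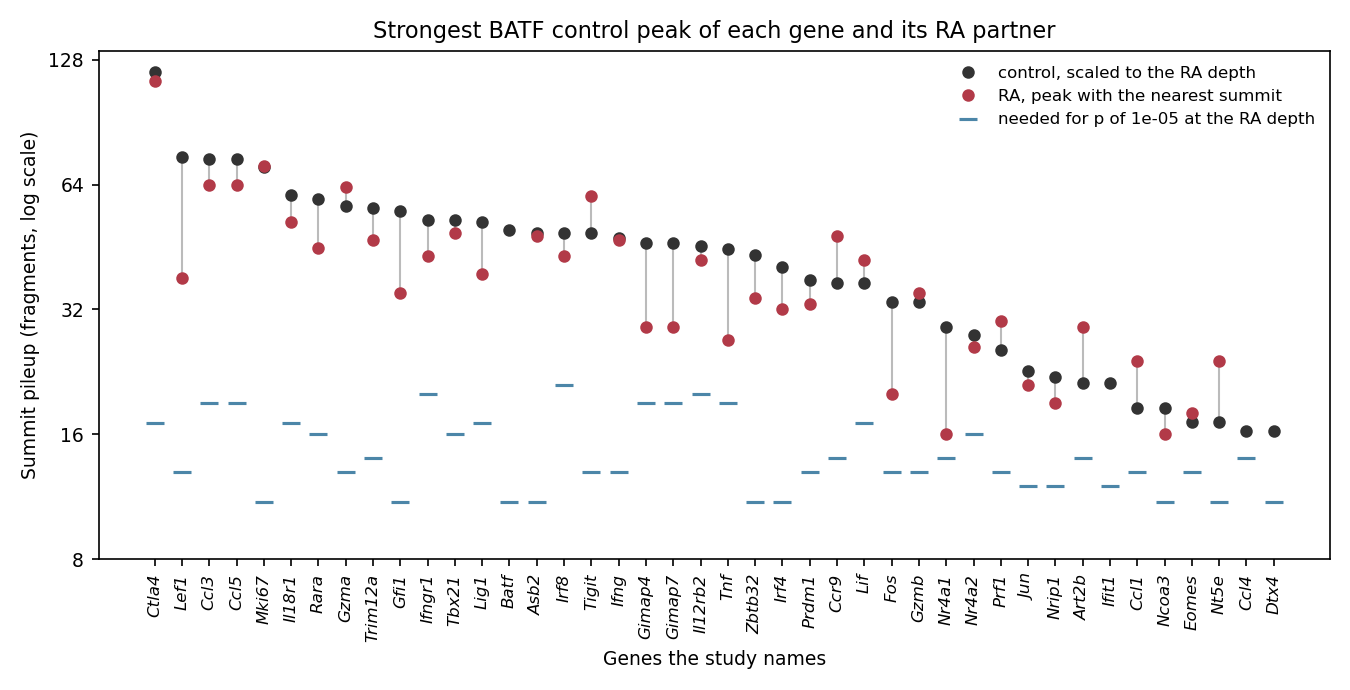
Summit pileup (y axis, fragments, log scale) at the strongest BATF control peak of genes in the list drawn up from the study, scaled to the RA depth (dark points). Red points are the RA peak of nearest summit, joined by a line. Blue dashes are the fragments needed for a call at the RA depth. Batf, Ifit1, Dtx4 and Ccl4 have no RA point, and Lef1 (74.6 and 38) shows a wide gap while Mki67 (70.4 and 71) shows almost none.

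BATF control peaks close to RARα control peaks were matched more often than the rest. Of 1132 BATF control peaks within 5 kb of a RARα control peak, 86.8% (84.7 to 88.7) had a BATF RA peak, against 68.6% of the other 14678, at median pileups of 31.6 and 30.6. The RARα list was called at a looser p cutoff, 0.001 against 1e-05 for BATF. Both distances were 5 kb, so a match can come from a neighbouring site, and this contrast was not taken by direct overlap.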

How the data were processed

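ChIP-seq libraries of mouse CD8 T cells (anti-BATF, 1 pool per condition, with 1 normal rabbit IgG library) were analysed from the peak lists that the authors deposited. Per the labels and the file headers the authors used Bowtie2, HOMER and MACS 2.2.7.1 in paired-end mode on mm10 (GRCm38), with a p cutoff of 1e-05 for BATF, pooled 2 alignment files per list and annotated peaks by class and nearby genes. Whether the 2 files are separate animals, cultures or runs, and whether the IgG cells received RA, is not given in the sources used here. The treatment labels name other interleukins than the IL-2 of the protocol.

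The deposited lists give the pileup at each summit (a signal, in fragments, which MACS scaled by 0.988 per fragment in the control list), the fold enrichment as a ratio over the local IgG level, and −log10 p-values and −log10 q-values, and the authors' p-values were recomputed from pileup and IgG level as Poisson tails (median absolute difference in −log10 p 0.00111 in control and 1.19e-05 in RA). The IgG level was taken as (pileup + 1)/fold enrichment − 1. Peak numbers run to 16228 and 10156 for 15812 and 9899 peaks, so 416 and 257 numbers are not analysed here.

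Peaks matched when their edges lay within 5 kb. Control pileups were multiplied by 0.72 for comparison at the RA depth. A control peak was paired with the RA peak of nearest midpoint, and with that of nearest summit. Gene names were taken from the lists (12143 of 12188, 99.6%, found in a RefSeq gene table of the same assembly), and a peak counts for every gene named for it. Intervals were Wilson 95% for shares and exact Clopper-Pearson for pileup ratios. No test was run between conditions. Named genes were those losing every peak (12) or gaining a first peak (12) with the highest pileup over IgG level. For losses these were taken among still-passing peaks with a pileup of at least 30. Also named were the 8 lowest and 8 highest ratios among genes with a control pileup of at least 40 at the strongest peak. The 8 genes with most peaks lost and list members that lost or gained all peaks or had the most peaks were added. So were genes of the list drawn up from the study. Members, lists and rules were chosen with earlier results of these data known. Calculations used Python 3.11.15, pandas 2.3.3 and scipy 1.17.1, and were tested on simulated data. Some of the named genes are not reported here.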

Additional observations from a re-analysis of the deposited data

Results flagged for a closer look

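Peaks outside chromosomes 1 to 19, X and Y entered no comparison. The RA list had 5 BATF peaks on unplaced or unlocalised scaffolds and the control list had 2. Of the 5, 2 lay at the places of the control peaks. The other 3 lay on chrUn_JH584304 with RA pileups of 1585, 1637 and 1744 over IgG levels of 1300, 1259 and 1438, so that BATF was only 1.21 to 1.30 times the IgG level there.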

How the results depend on the processing

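With at least 1 bp of overlap, the share of control peaks with an RA peak was 54.4%, that of RA peaks with a control peak 93.6% and that of still-passing control peaks 57.4%, and by class 61.2% (promoter), 48.9% (exon), 41.3% (intron) and 47.9% (intergenic). Within 1 kb the first shares were 60.8% and 95.3%, and with a −log10 p of at least 10 in both lists 57.1% and 95.2%. Among still-passing peaks, promoters had 75.9% and intergenic peaks 64.5%. A cutoff of 1e-06 after scaling gave 73.4%, and also lowering the scaled pileup by the median same-site ratio, an alternative chosen after seeing the data, 76.0%. The median ratio of pileup over IgG level over all 11046 pairs was 0.921. It was 0.868 with 1 added to both values, 0.883 with summits within 100 bp, 0.885 without the IgG level and 0.818 at control pileups of at least 40. With promoter peaks only, 137 genes gained a first peak. Summed over all peaks of a gene, the ratios of Ptger4 (1.53), Dusp2 (1.00), Arhgap10 (0.96) and Zc3hav1 (0.895) turned direction, as did Dusp2 and Astl (1.12 each) with the RA peak of nearest summit, also chosen after seeing the data. Of 74 alternative values, 34 stayed within the interval or limit set for each, 34 moved and 6 turned direction. No paired analysis was possible because each condition has 1 pooled list, and for the same reason no replicate could be left out.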
